A study of Mus musculus with 9 samples.

Results

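The genes of the constitutive proteasome were examined in the hippocampus of N4 Ube3a m-/p+ mice given an antimiR against miR-134 or a scrambled control. The members were the protein-coding genes of the count table named Psma, Psmb, Psmc or Psmd followed by a digit, without the inducible subunits Psmb8, Psmb9 and Psmb10. This rule took 37 of the 54532 genes, and 36 of them had at least 10 counts in every library. Psma8, the testis form of an alpha subunit, was the gene left out, with 7 to 26 counts per library, and the lowest gene kept was Psmb11, the thymus form of a catalytic subunit, with 26 to 37 counts. By role, 31 of the members are somatic subunits of the 26S particle, which had 1371 to 8068 counts per library, and Psmd5, Psmd9 and Psmd10 encode chaperones that assemble its cap. Psmc3ip was taken by its name alone, since it encodes a meiotic recombination factor.

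The proteasome is the protease that degrades proteins tagged with ubiquitin. Its 20S core is a barrel of alpha rings, which gate the entry, and beta rings, which hold the catalytic sites, and its 19S cap has a base of ATPases that unfold the substrate and a lid that removes ubiquitin. UBE3A, the enzyme lost from the maternal allele in Angelman syndrome, is a ubiquitin ligase, so the proteasome lies downstream of the gene that is deleted in these mice.

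Both groups carried the maternal Ube3a deletion on a background backcrossed to 129Sv/Ev, and no wild-type mouse was among the libraries. Ant-134, an oligonucleotide complementary to miR-134, was given to 5 mice and Scr, a scrambled oligonucleotide, to 4 mice, each as 0.5 nmol into the cerebral ventricle on postnatal day 21. All mice were tested for audiogenic seizures on days 22, 24 and 26, and the ipsilateral hippocampus was taken 24 h later. Every library therefore follows both an injection and repeated sound stimulation. The paper reports milder seizures after Ant-134 and a tendency toward better survival. In this contrast the oligonucleotide, the severity of seizures and the selection of surviving mice cannot be told apart. Mice of both sexes were used in the study. One library was made per mouse, from whole tissue, with 28583298 to 41978113 counts on genes. All 9 markers of hippocampal neurons were present in every library, with a summed level of 4096 to 4638 CPM (counts scaled to the TMM-normalized size of each library) after Ant-134 and of 4054 to 4297 CPM after Scr. Choroid plexus markers ranged from 67.4 to 2564 CPM between libraries. The labels give no sex per mouse. The mean log2 CPM of 4 Y-linked genes was -0.744 and -0.352 in Ant-134 replicates 1 and 4 and -0.771 in Scr replicate 3. It was 5.23 to 5.4 in the other libraries, so by these genes each group held both sexes.

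Sequences are shown for the 2 ways in which the treatment or a shared regulator could meet these genes, which are a site for miR-134 in the transcript and a motif in the promoter. Mature miR-134-5p lies on chr12:109734145-109734166 of GRCm38.p6, on the plus strand, and its seed, bases 2 to 8, is in capitals. A site was CAGTCAC, which pairs with the whole seed, or AGTCACA, which pairs with all of it but base 8 and has an A opposite base 1. One was found in the longest 3' UTR of 1 of the 37 members, Psmd5, against 19.5% of the 15278 genes tested that have an annotated 3' UTR, which is 2.70% of the members. The 3' UTRs of the members were short, with a median of 338 bases against 1167 bases for the genes tested. The site of Psmd5 starts at base 1301 of a 3' UTR of 2845 bases and has its 7 bases in capitals. It is of the second form, so that base 8 of the seed is not paired. Of the 2 annotated 3' UTRs of Psmd5, 1 holds the site, and which is used in the hippocampus was not examined.
miR-134-5p: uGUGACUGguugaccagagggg
Psmd5 site: caccatcccaAGTCACActgttgactta

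Promoter windows of RefSeq on GRCm38.p6, from 250 bases before to 50 after the start, were matched to 30 members by symbol and gave 32 windows. TGACNNNGC, the letters of the antioxidant response element that NRF1 (Nfe2l1), the main activator of proteasome genes, can bind, was present on either strand in 5 of them. This is 15.6% of the windows of members, 13.9% of those of genes tested and 12.4% of all 32851 windows. CCGGAAG, the core bound by Ets factors, was present in 12 windows, or 37.5%, against 14.3% of the windows of genes tested. CCAAT was found in 40.6% against 37.1%, and GGGCGG, a GC box, in 56.2% against 57.0%. Shown are the windows upstream of the annotated gene of Psmb5 (chr14:54618023-54618072, minus strand) and Psmb6 (chr11:70525318-70525356, plus strand), which encode catalytic subunits and hold TGACNNNGC, and of Psmc2 (chr5:21785161-21785227, plus strand) and Psmd2 (chr16:20651596-20651651, plus strand), which hold CCGGAAG as its reverse complement. Each is written along the gene with the motif in capitals, and a match of letters does not show that a factor was bound.
Psmb5: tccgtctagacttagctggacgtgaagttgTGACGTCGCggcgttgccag
Psmb6: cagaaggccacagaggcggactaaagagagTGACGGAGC
Psmc2: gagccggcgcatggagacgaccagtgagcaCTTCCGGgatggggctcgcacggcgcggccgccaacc
Psmd2: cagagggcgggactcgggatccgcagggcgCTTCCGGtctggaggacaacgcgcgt

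The 31 somatic subunits were all abundant in the hippocampus, although their levels per length were not equal. In the FPKM deposited by the authors, in which the length of the gene and the total of the library are divided out, they ranged from 9.51 ± 0.308 (SD, n = 9) for Psmd11, a lid subunit, to 84.4 ± 5.15 for Psmc5, an ATPase, with a median of 29.7. Psmb5, which carries the chymotrypsin-like site, followed at 67.4 ± 4.55 and Psmc1, another ATPase, at 58.2 ± 2.67. Psmd11 and Psmc5 differed by far more than the spread over the libraries. Neighbours in the order lay closer, such as Psmc2 at 19.7 ± 0.744 and Psmc6 at 19.7 ± 0.700. The chaperones were below every subunit, with 7.94 ± 0.780 for Psmd10, 6.60 ± 0.475 for Psmd5 and 3.07 ± 0.180 for Psmd9. Psmc3ip was at 1.52 ± 0.199, and the forms of other tissues were near 0, with 0.190 ± 0.0174 for Psmb11 and 0.249 ± 0.119 for Psma8.

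Part of this order came from the length used. The gene length of the table was up to 3.36 times the length of the principal transcript, in Psma7, an alpha subunit. With the principal transcript, an alternative chosen after the data had been seen, the highest subunit was Psma7 at 105 ± 4.17 in place of 31.3, followed by Psmb6 at 99.0 ± 6.34, which carries the caspase-like site. Psmd11 stayed the lowest at 21.3 ± 0.691. The fold between the highest and the lowest subunit was 8.87 with the gene length and 4.93 with the principal transcript.

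**Figure D1:**
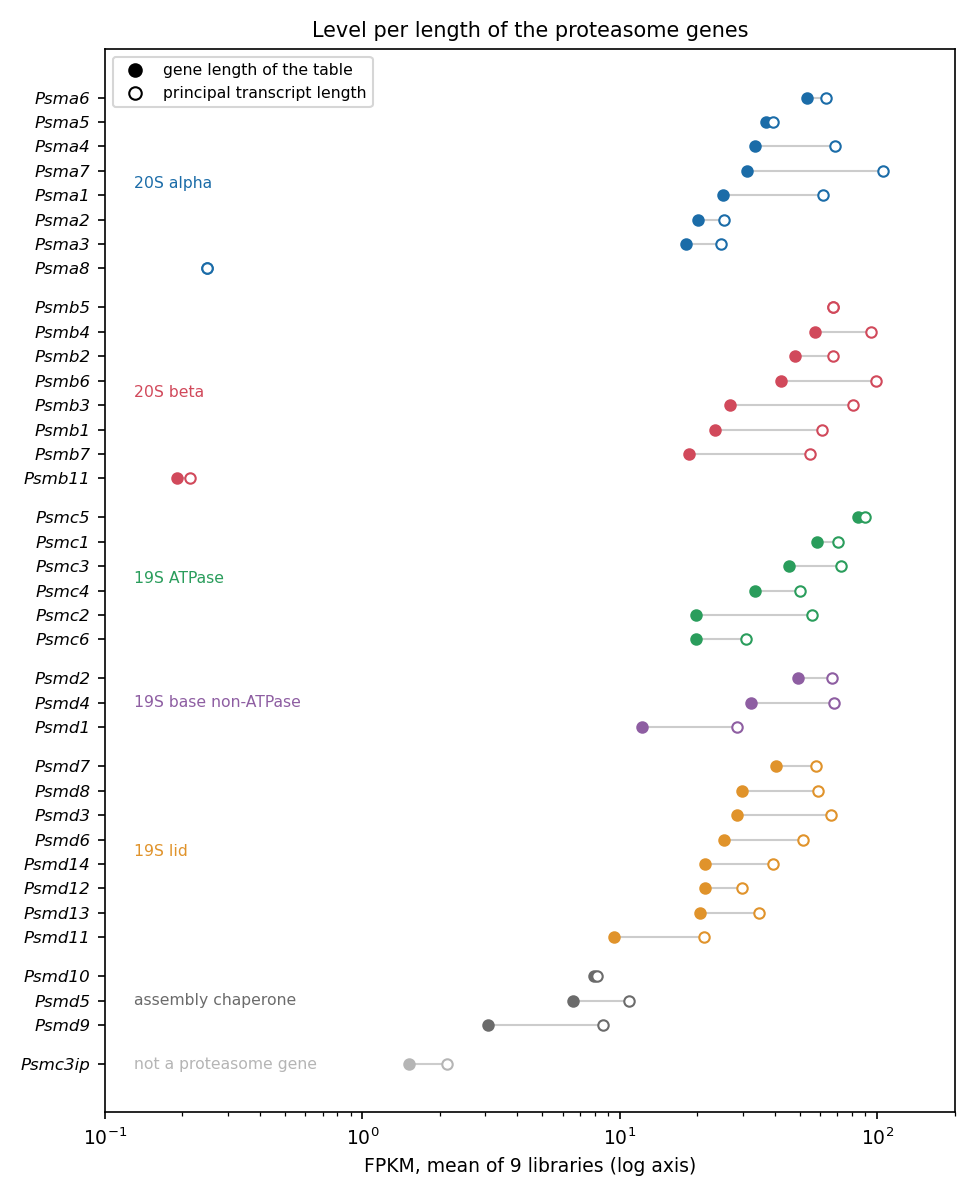
FPKM of the 37 genes by role on a log axis, as the mean of 9 libraries, with the gene length of the table (filled circles) and the length of the principal transcript (open circles). The somatic subunits lie between 9.51 and 84.4 with the first and between 21.3 and 105 with the second, and the 3 chaperones, Psmc3ip, Psmb11 and Psma8 lie below them with both.

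Ant-134 was compared with Scr to see whether the treatment moved these genes. None of the 36 members was higher and none was lower at an unadjusted p below 0.05 in edgeR's quasi-likelihood test, whereas 1.49% of the 19782 genes tested were higher and 2.69% were lower. The member nearest to the threshold was Psmc2, and every member had a Benjamini-Hochberg adjusted p of at least 0.998. Among all genes, 0 passed after adjustment in edgeR, with 827 at an unadjusted p below 0.05, and 16 passed in DESeq2. Neither direction had a member whose groups did not overlap, against 0.647% of all genes for higher and 0.895% for lower values in the Ant-134 group. For 36 members, counts of 0 are near all of these shares and are no result about the members. In these bulk samples, fewer cells of a type and less RNA per cell cannot be told apart. The p-values measure the spread between mice, since each library came from its own mouse.

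The log2 fold changes of the members ran from -0.045 for Psmc3ip to 0.093 for Psmd10 with a median of 0.017, beside 0.0026 for all genes tested. They were above 0 in 25 of 36 members, which is 69.4% against 51.2% of all genes. This share moved with single libraries, since the 11 members below 0 became 7 without Ant-134 replicate 2, 17 without Scr replicate 1 and 18 without Ant-134 replicate 5. The 95% intervals of all 31 somatic subunits held 0, and their bounds lay between -0.17 and 0.18 on the log2 scale. In these libraries the intervals therefore left room for changes from -11.0% to 13.4%, and larger changes of a somatic subunit lay outside them.

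**Figure D2:**
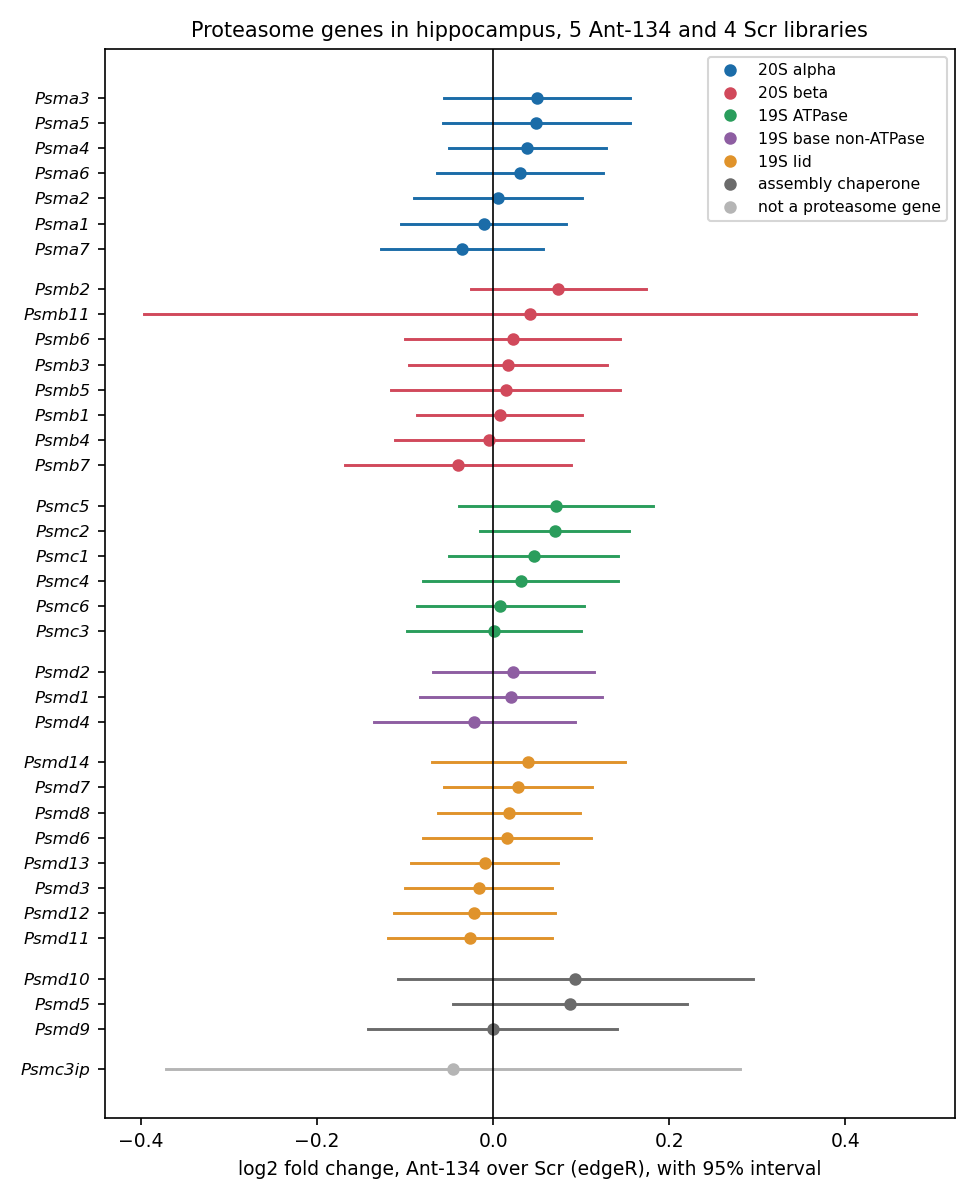
Log2 fold change of the 36 members, Ant-134 over Scr, in edgeR's fit across all genes, with points for the estimate and lines for the 95% interval, sorted within each role. All 36 intervals cross 0, and the widest belong to Psmb11 and Psmc3ip, which have the fewest counts.

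The alpha subunits form the gated ends of the core. Of the 7 tested, 5 were above 0 and 2 below, with a median log2 fold change of 0.031. Psma3 had the highest, with 74.6, 72.6, 70.9, 68.2 and 75.0 CPM in the Ant-134 libraries and 64.2, 73.8, 68.6 and 72.5 CPM in the Scr libraries. The groups overlapped, and the low value of Scr replicate 1 set much of the distance between the means. Its log2 fold change was 0.050 (SE 0.0492). Psma7 had the lowest, with 97.0, 97.0, 93.1, 89.8 and 103 CPM after Ant-134 and 96.3, 100, 97.6 and 99.1 CPM after Scr. The Ant-134 values spanned those of Scr on both sides, and the log2 fold change was -0.035 (SE 0.0432). Psma6 had the highest FPKM of the alpha subunits with the gene length of the table, though not with the principal transcript. Its values were 70.5, 68.6, 63.9, 64.8 and 67.3 CPM against 62.6, 66.8, 66.7 and 66.4 CPM. Its 3 higher Scr values lay inside the range of the Ant-134 group. The means of Psma1, Psma2, Psma4 and Psma5 were 50.2 to 81.4 CPM after Ant-134 and 48.5 to 79.3 CPM after Scr.

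The beta subunits hold the active sites, and 6 of the 8 tested were above 0, with a median of 0.015. Psmb5 (chr14:54614119-54618022 of GRCm38) had 62.3, 61.2, 63.6, 52.7 and 67.6 CPM in the Ant-134 group and 59.7, 61.0, 59.4 and 63.4 CPM in the Scr group. The lowest and the highest value both came from Ant-134 mice, replicates 4 and 5. Psmb6 (chr11:70525367-70527858) followed the same order in these mice, with 82.1, 78.8, 79.9, 72.5 and 88.4 CPM against 72.9, 83.9, 81.7 and 78.0 CPM. Psmb7 (chr2:38588036-38644087), which carries the trypsin-like site, had 64.0, 60.6, 63.5, 61.8 and 66.8 CPM against 56.0, 66.5, 67.6 and 70.3 CPM. Here 1 Scr library was the lowest of all 9 and another the highest. The log2 fold changes were 0.014 (SE 0.0608) for Psmb5, 0.022 (SE 0.0572) for Psmb6 and -0.040 (SE 0.0601) for Psmb7. Without Scr replicate 1, Psmb7 was the 1 member called lower, with a log2 fold change of -0.11. The span of Psmb7 overlaps that of Nek6, which lies on the other strand with 1307 to 2285 counts. Reads of any shared exon cannot be told apart unless strand was used in counting, which is not given in the sources used here.

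Psmb2, a structural beta subunit, was the highest of this ring at 0.074 (SE 0.0466). Its values were 61.8, 62.0, 55.8, 57.2 and 60.6 CPM after Ant-134 and 54.4, 57.8, 56.6 and 57.4 CPM after Scr. Of the Ant-134 libraries, 3 lay above every Scr library and the other two were within their range. Psmb11 had 0.853, 0.962, 0.925, 1.02 and 0.893 CPM against 1.07, 0.828, 0.909 and 0.820 CPM. At this depth its interval was too wide to show a difference of the size seen in the other subunits.

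The ATPases form the ring that unfolds substrates, and all 6 were above 0, with a median of 0.039. This count did not hold in every fit. Psmc3 changed sign in 6 of 19 alternative fits, and Psmc6 reached -0.013 with a library left out. Psmc2 (chr5:21785283-21803787) was the member nearest to the threshold. Its values were 101, 103, 98.2, 104 and 105 CPM in the Ant-134 libraries and 93.8, 99.3, 96.0 and 101 CPM in the Scr libraries. Most Ant-134 values were above most Scr values, but replicate 3 lay below 2 of the Scr libraries. The log2 fold change was 0.070 (SE 0.0395). Psmc5 had 126, 120, 121, 111 and 129 CPM against 110, 115, 112 and 125 CPM, with a log2 fold change of 0.072 (SE 0.0515). Its Scr replicate 4 was within the Ant-134 range and the other three were near its lower end. Without that library, Psmc5 was called higher at 0.11 and the chaperone Psmd5 at 0.14 on the log2 scale. Psmc3 was the lowest ATPase at 0.0011 (SE 0.0463), with 123, 118, 117, 111 and 129 CPM against 117, 124, 118 and 120 CPM. Its means were equal to 3 digits, at 120 CPM in each group.

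In the base, Psmd1 and Psmd2 are the large scaffold subunits and Psmd4 is a ubiquitin receptor. Psmd2 had the most counts of all members per library, with 207, 203, 193, 199 and 205 CPM against 191, 191, 203 and 209 CPM. Psmd4 had 90.3, 88.0, 93.0, 81.1 and 101 CPM against 90.9, 94.2, 90.6 and 92.3 CPM. Psmd1 had 87.9, 92.7, 85.1, 95.1 and 88.3 CPM against 89.4, 83.2, 86.8 and 95.1 CPM. In all 3 the groups overlapped, and for Psmd4 the Scr values lay within a wider range of Ant-134, with log2 fold changes of 0.023 (SE 0.0428) for Psmd2, -0.021 (SE 0.0535) for Psmd4 and 0.020 (SE 0.0482) for Psmd1.

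The median of the lid was the nearest to 0 of all roles. Its 8 subunits were split into 4 above and 4 below 0, with a median of 0.0030 and a range from -0.026 to 0.040. Psmd14 (chr2:61711694-61800376), the deubiquitinase that removes ubiquitin chains, was the highest, with 63.0, 57.3, 59.4, 66.8 and 63.0 CPM against 57.5, 62.8, 59.1 and 61.2 CPM. The Ant-134 values reached below and above those of Scr, and the difference was 0.040 on the log2 scale (SE 0.0512). Psmd11, a scaffold subunit, was the lowest, with 61.4, 62.2, 58.4, 59.3 and 62.7 CPM against 61.1, 64.7, 59.5 and 62.4 CPM. Psmd7, the partner of Psmd14, had 94.5, 91.3, 92.9, 92.1 and 95.4 CPM against 90.5, 95.9, 87.9 and 91.5 CPM. For both, the 2 groups covered nearly the same values, with log2 fold changes of -0.026 (SE 0.0436) and 0.028 (SE 0.0391). The remaining lid subunits, Psmd3, Psmd6, Psmd8, Psmd12 and Psmd13, lay between -0.021 and 0.017.

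The chaperones hold the ATPases until the base is complete. Psmd10, also known as gankyrin, had the largest estimate of the 36 members tested, 0.093, with an SE of 0.0944. Its values were 12.6, 10.2, 11.8, 12.4 and 13.5 CPM after Ant-134 and 11.3, 11.1, 10.3 and 12.7 CPM after Scr. Each group held both low and high values. Psmd5, the member with the miR-134 site shown above, had 50.9, 47.8, 47.7, 50.6 and 50.4 CPM against 42.9, 49.2, 42.3 and 51.9 CPM. The Scr replicates 1 and 3 were below all Ant-134 libraries and replicate 4 held the highest value, and the log2 fold change was 0.087 (SE 0.0623). Psmd9 had 24.2, 22.3, 22, 21.9 and 22 CPM against 22.2, 25.2, 21.5 and 21 CPM, a difference of -0.00080 on the log2 scale (SE 0.0659). Psmc3ip, outside the particle, had 3.57, 2.73, 2.28, 2.39 and 2.78 CPM against 2.88, 2.91, 2.79 and 2.78 CPM, with the Scr values close together inside the range of Ant-134.

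The spread of the members between mice of one group was small. Their median coefficient of variation within groups was 4.35%, and 4.03% for the somatic subunits, against 10.3% for all genes tested, 7.28% for 77 genes of cytosolic ribosomal proteins and 6.02% for 82 genes of the respiratory chain. Of the pathway lists, the 11 enzymes and shuttles that bind the proteasome were lower, at 3.63%, the 5 activators and inhibitors were at 4.69%, and the ubiquitin genes and the inducible subunits were higher, at 13.4% and 18.9%. All genes tested include many with far fewer counts, with a median of 12.9 CPM against 72.7 CPM for the members. Among the roles, the lid had the lowest median, 2.76%, and the beta subunits, with Psmb11 among them, were at 6.07%. The extremes of the somatic subunits were Psmd13, a lid subunit, at 2.25% and Psmb5 at 7.03%.

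What variation there was ran through many members at once, and it did not follow the treatment. The median level of the 36 members, as log2 CPM around the mean of each gene, was 0.028, -0.0053, -0.010, -0.033 and 0.064 in Ant-134 replicates 1 to 5 and -0.035, 0.043, -0.030 and 0.016 in Scr replicates 1 to 4. The mean was 0.0087 ± 0.0379 (SD, n = 5) after Ant-134 and -0.0014 ± 0.0374 (SD, n = 4) after Scr, so that the groups differed by less than the spread within each. Ant-134 replicate 5 held the highest value of 19 members and replicate 4 of the same group the lowest of 12, while Scr replicate 1 held the lowest of 8. The summed level of the members was between 2688 and 2916 CPM after Ant-134 and between 2664 and 2819 CPM after Scr.

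Other abundant housekeeping genes stood apart in some of the same mice. Ribosomal protein genes had medians of 0.14 in Ant-134 replicate 5 and -0.14 in replicate 4, and respiratory chain genes 0.10 and -0.12. In Scr replicate 1 the respiratory chain genes were also low, at -0.082, but the ribosomal protein genes were at 0.027. The 5 oligodendrocyte markers were lowest in Ant-134 replicate 5, at -0.52, and were at -0.16 in replicate 4, and the part of these levels in the level of the members was not tested. Between the groups, 70 of the 82 respiratory chain genes tested and 37 of the 77 ribosomal protein genes had a log2 fold change above 0, which is 85.4% and 48.1% beside 69.4% of the members.

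**Figure D3:**
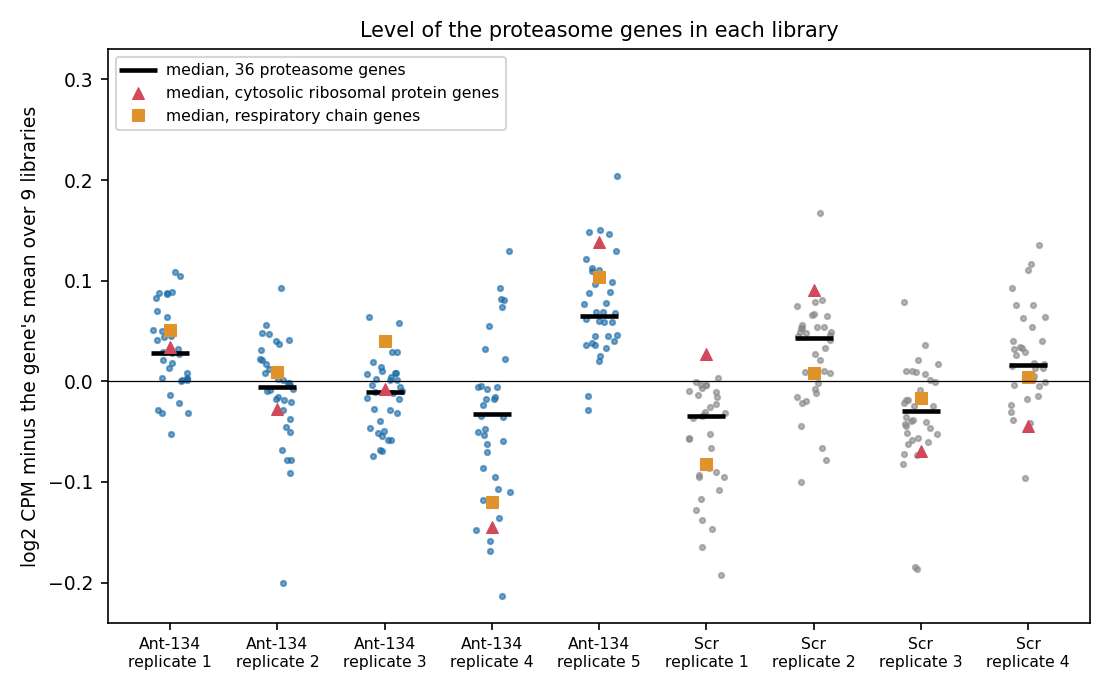
Log2 CPM minus the mean of each gene over the 9 libraries, for the proteasome genes except Psmb11 and Psmc3ip (dots, Ant-134 in blue and Scr in grey), with the median of all 36 members (bars), of the ribosomal protein genes (triangles) and of the respiratory chain genes (squares). The medians of the members run from -0.035 in Scr replicate 1 to 0.064 in Ant-134 replicate 5, and both groups lie on either side of 0.

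Over the 9 libraries, the median correlation between pairs of members was r = 0.38, and 0.44 between somatic subunits, as a description of libraries that share their scaling. With each gene centred within its group it was 0.40 and 0.48. Without the 2 libraries farthest from the median of the members, Ant-134 replicate 5 and Scr replicate 2, it was 0.23 and 0.27, beside 0.60 for ribosomal protein genes and 0.58 for respiratory chain genes, and since these libraries were chosen by the level of the members, a lower value for the members follows in part from that choice. In all 9 libraries the median for pairs of all genes was -0.0010, and it was 0.74 for ribosomal protein genes and 0.59 for respiratory chain genes. The members most like the median of the others were Psmc3 (r = 0.89), Psmc1 (r = 0.89) and Psma3 (r = 0.86). Least like it were Psmb11 (r = -0.71), which is not part of the somatic particle, and Psmd1 (r = -0.34), the only somatic subunit below 0. The next were Psmd2 (r = 0.24), Psmc6 (r = 0.30) and Psmd14 (r = 0.32), close to each other.

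The 38 other genes of the pathway were examined in the same fit. In edgeR's test none was higher and 2 were lower at an unadjusted p below 0.05, Psmb8 and Psme2, against 1.49% and 2.69% of all genes tested, and a count this small is no result about the list. The median log2 fold change was -0.0086, with 17 genes above 0, and Txnl1, a thioredoxin that binds the cap, was called higher by DESeq2 and limma but not in this test. Both encode forms that interferon induces, since Psmb8 replaces Psmb5 in the immunoproteasome and Psme2 is part of an activator that caps the core. Psmb8 (chr17:34197721-34201454) had 9.35, 6.91, 4.66, 6.16 and 5.33 CPM after Ant-134 and 8.96, 8.80, 9.94 and 10.6 CPM after Scr. The Ant-134 replicates 2 to 5 lay below every Scr library, and replicate 1 lay among them. The log2 fold change was -0.56 (SE 0.166, adjusted p = 0.998 in edgeR's test), and the two-sided exact permutation test of the CPM values gave p = 0.0317. Psme2 had 15.1, 15.8, 12.4, 14.0 and 12.8 CPM against 15.7, 18.1, 14.0 and 18.2 CPM, and its log2 fold change was -0.24 (SE 0.0965, adjusted p = 0.998 in edgeR's test, exact permutation p = 0.0873). Its groups overlapped, and it was no longer called without Ant-134 replicate 3, Ant-134 replicate 5, Scr replicate 2 or Scr replicate 4, with log2 fold changes of -0.20, -0.20, -0.19 and -0.18.

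Psmb9 and Psmb10, the other inducible subunits, were not called, at -0.41 (SE 0.268) and -0.079 (SE 0.0800). Psmb9 had 4.69, 3.20, 1.49, 2.55 and 3.64 CPM against 3.42, 3.59, 4.11 and 5.56 CPM, and its log2 fold change was -0.61 without Ant-134 replicate 1, where it was called lower, -0.24 without Ant-134 replicate 3 and -0.24 without Scr replicate 4, where it was not called. Psmb10 had 33.2, 30.4, 31.9, 24.8 and 33.7 CPM against 31.7, 31.3, 32.0 and 35.2 CPM. The groups overlapped for both, and a difference between the inducible subunits was not tested. All 8 microglia markers were below 0 as well, 5 of them at an unadjusted p below 0.05, with a summed level of 421 to 454 CPM after Ant-134 and 479 to 542 CPM after Scr. All 5 markers of meningeal fibroblasts were below 0 too, with 4 called lower and a median log2 fold change of -0.43. Their summed levels were 81.8 to 143 CPM after Ant-134 and 124 to 165 CPM after Scr. With each of the 9 libraries left out in turn, the calls of Lum, Slc6a13, Col1a2 and Col1a1 held 9, 7, 5 and 2 times. Each of these genes had an adjusted p of 0.998 in edgeR's test. Beside the counts for both cell types, 2.69% of all genes tested were called lower. The part of either cell type in the values of Psmb8, Psmb9 and Psme2 was not tested.

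Each inducible subunit was set against the constitutive subunit whose place it takes. Psmb8 had 15.0, 11.3, 7.33, 11.7 and 7.88 counts per 100 counts of Psmb5 in the Ant-134 libraries and 15.0, 14.4, 16.7 and 16.8 in the Scr libraries. The means were 10.6% ± 3.13 (SD, n = 5) and 15.7% ± 1.19 (SD, n = 4), with p = 0.0317 in a two-sided exact permutation test over 126 splits, which can give no p below 0.00794. Over the 3 pairs compared, the Benjamini-Hochberg adjusted value was 0.0951, so that the difference did not pass correction. Psmb9 per Psmb6 was 3.86% ± 1.38 against 5.28% ± 1.27 (exact permutation p = 0.175, adjusted 0.262), and Psmb10 per Psmb7 was 48.6% ± 4.75 against 50.3% ± 4.48 (exact permutation p = 0.595, adjusted 0.595). Since Psmb5 was at 61.5 ± 5.47 CPM and 60.9 ± 1.83 CPM, the difference between the Psmb8 ratios lay in the Psmb8 counts.

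**Figure D4:**
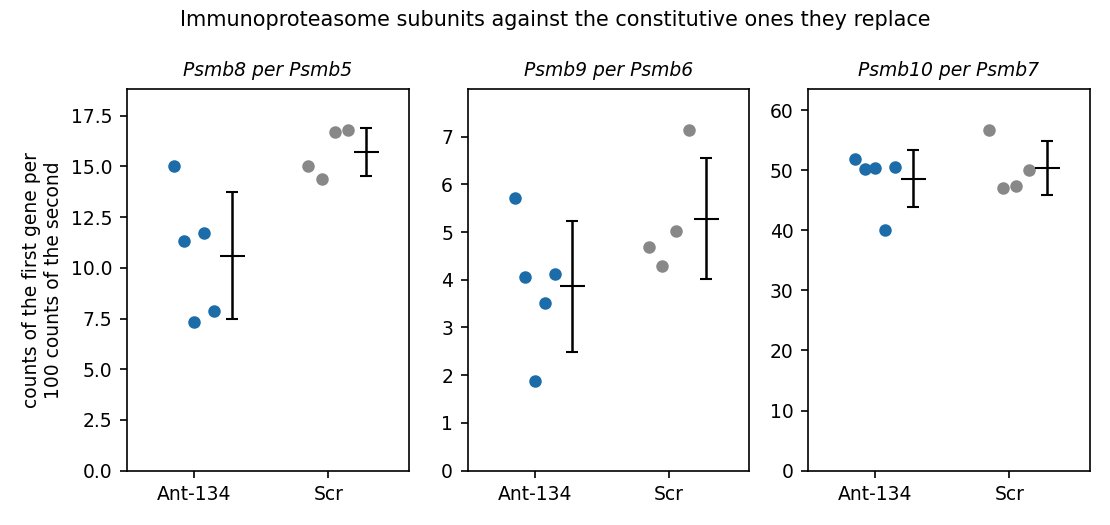
Counts of each inducible subunit per 100 counts of the constitutive subunit it replaces, for 5 Ant-134 (blue) and 4 Scr (grey) libraries, each on an axis from 0, with the mean and SD beside the points. Ant-134 replicates 2 to 5 lie below all Scr libraries for Psmb8 per Psmb5, at 7.33 to 11.7, and for Psmb9 per Psmb6, at 1.87 to 4.12, with replicate 1 among the Scr libraries in both, whereas 3 of the 4 Scr libraries lie within the range of Ant-134 for Psmb10 per Psmb7.

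Among the genes that control or feed the proteasome, Nfe2l1, the activator of its genes, had 294, 300, 286, 288 and 272 CPM in the Ant-134 group and 290, 272, 300 and 308 CPM in the Scr group. Adrm1, a ubiquitin receptor of the cap that the naming rule does not take, had 73.6, 71.3, 72.7, 67.2 and 75.7 CPM against 68.5, 73.8, 67.4 and 71.5 CPM. Pomp, which matures the core, had 77.3, 70.6, 72.6, 70.1 and 77.0 CPM against 69.6, 80.2, 73.4 and 74.1 CPM. In all of them the groups overlapped, with log2 fold changes of -0.021 (SE 0.0465), 0.036 (SE 0.0459) and -0.017 (SE 0.0499). Ube3a itself had 90.2 ± 6.26 CPM (SD, n = 5) after Ant-134 and 92.4 ± 4.81 CPM (SD, n = 4) after Scr. Since both groups carry the deletion, this does not test the genotype. The counts are per gene and do not tell its alleles or transcript forms apart.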

How the data were processed

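Poly-A RNA of 9 hippocampi was sequenced as paired reads. The authors mapped clean reads to GRCm38 (mm10) with HISAT2 2.0.5 and counted them with featureCounts 1.5.0-p3, as the submitters' processing notes and the methods state, and deposited the counts per gene without normalization. The deposited FPKM values divide these counts by the length of the gene and the total of the library. Groups and replicate numbers were taken from the sample titles. In R 4.3.3, edgeR 4.0.16 kept 19782 genes by filterByExpr (minimum count 10), scaled them by TMM and ran a robust quasi-likelihood test of Ant-134 against Scr on all 9 libraries, with no covariate. Standard errors and 95% intervals came from the F statistic and its degrees of freedom. A gene was called at an unadjusted p below 0.05, the threshold of the study, and Benjamini-Hochberg values cover all genes tested. The fits were tested on simulated data.

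The members and lists were chosen with earlier results of these data known. Named were, by a written rule, the members with the highest and lowest fold change and FPKM of each role, the catalytic subunits, Psmd14, Psmd4, the members outside the somatic particle, the inducible subunits, every called pathway gene, and Nfe2l1, Adrm1, Pomp and Ube3a. Other members are named beside them for context. Alternatives were DESeq2 1.42.0, its size factors, other filters, a fit that was not robust, a block by replicate number, the level of 4 Y-linked genes as covariate, limma 3.58.1 on log2(FPKM + 1) or log2(FPKM + 0.1), and leaving out each library. Libraries held 28583298 to 41978113 counts, and PCR duplicates cannot be told apart, so intervals from counts would cover counting error only. Sites, transcripts and overlaps came from GENCODE M21.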

Additional observations from a re-analysis of the deposited data

Results flagged for a closer look

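In 96 groups of values of the proteasome genes, the named genes of the pathway and the ratios, 6 had 1 library far from the others of its group by Dixon's ratio, where chance gives about 1 in 20 groups, or 4.8 here. Psma2 was 76.5 CPM in Ant-134 replicate 5 and 73.9 to 74.5 CPM in the other Ant-134 libraries. Psma6 was 62.6 CPM in Scr replicate 1 and 66.4 to 66.8 CPM in the other Scr libraries. In Scr replicate 2, Psmc6 was 72.8 CPM against 67.8 to 68.4 CPM, and Psmd3 was 148 CPM against 142 to 143 CPM. Psmd9 was 24.2 CPM in Ant-134 replicate 1 against 21.9 to 22.3 CPM. Psmb10 per Psmb7 was 40.1% in Ant-134 replicate 4 against 50.2% to 51.8% in the other Ant-134 libraries.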

How the results depend on the processing

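No alternative gave a member an adjusted p below 0.05, and the lowest was 0.832. The counts of members called, 0 higher and 0 lower, held in every alternative but 3. With limma on all genes in log2(FPKM + 1), 1 was higher, Psmc2 at a log2 fold change of 0.069, and 1561 genes were called in all. Leaving out each library gave 0 to 2 higher members, 0 to 1 lower ones and 7 to 18 below 0. The median log2 fold change of the members was 0.0011 to 0.028 over the alternatives and moved by less than 1 SD of the library medians, 0.0377. With no filter on low counts 1775 genes were called in place of 827, and over the left-out libraries 629 to 973. The paper calls the Scr mice littermates of the treated mice, but the sample titles give no litter. Same-numbered libraries correlated at -0.15 to 0.053 in their deviations, and none was closest to its own number. These correlations cannot show whether mice were paired by litter. With the replicate block, 18 members were below 0, and 0 were called. With subunits of the 26S particle only, 9 were below 0. The length of the principal transcript gave a fold between subunits of 4.93. Of 512 alternative values of the 27 named genes not called, 4 passed the threshold and 34 had another sign. Psmb8 stayed lower and called in all 19 alternatives, with log2 fold changes from -0.73 to -0.43. Psme2 lost its call in 4 of 19.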

Other observations

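The genes that encode ubiquitin itself varied more between mice than the proteasome genes. Ubb, the ubiquitin gene with the most counts, had 726, 662, 692, 628 and 674 CPM in the Ant-134 libraries and 646, 703, 774 and 779 CPM in the Scr libraries. The groups overlapped, with a log2 fold change of -0.10 (SE 0.0587, adjusted p = 0.998 in edgeR's quasi-likelihood test). The median coefficient of variation within groups was 13.4% for the 4 ubiquitin genes against 4.35% for the proteasome genes. Txnl1, a thioredoxin that binds the cap, was not called in edgeR's test of all libraries, with 65.2, 67.7, 64.8, 66.1 and 69.5 CPM against 61.6, 65.1, 61.0 and 63.4 CPM, a log2 fold change of 0.087 (SE 0.0416, adjusted p = 0.998 in edgeR's test), and was chosen after its values were seen. It was called higher at an unadjusted p below 0.05 by DESeq2, with a log2 fold change of 0.092, by limma on FPKM, and by edgeR with DESeq2's size factors, without robust estimation or without Scr replicate 2.

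The spans of 17 of the 37 members overlap another annotated gene, and for 12 it had at least 10 counts in some library. Whether their exons overlap was not examined. Psma2 lies on the same strand as AW209491, with 388 to 653 counts, and Psmd13 as the pseudogene Gm15542, with 228 to 462 counts. On the other strand, Psmd13 overlaps Sirt3, with 1308 to 1904 counts, and Psmc3 overlaps Slc39a13, with 758 to 1209 counts. As for Psmb7, reads of any shared exon cannot be told apart unless strand was used in counting. The 6 pseudogenes named after members had at most 3 counts in a library. The members lie on 16 chromosomes, with 7 on chromosome 11 and 5 on chromosome 2.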
